A study of Homo sapiens with 6 samples.

Results

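The human mitochondrial genome is a small circle that carries 37 genes, and all of them were measured here in a B-cell line treated with bryostatin-1 or with solvent. The 37 were taken from the deposited gene table, which holds 58735 genes in all, as the genes whose symbol starts with MT-. They comprise 13 mRNAs, 2 ribosomal RNAs and 22 transfer RNAs. By the strand of the annotation, 28 belong to the set transcribed from the heavy strand (12 mRNAs, both rRNAs and 14 tRNAs) and 9 to the set transcribed from the light strand (MT-ND6 and 8 tRNAs). The question was whether these transcripts, by class and by strand, differed between the treatments.

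Raji is an established line from a Burkitt's lymphoma, a B-cell tumour, and the genotype given for both groups is GFP-ffluc. Bryostatin-1, a macrocyclic lactone that activates protein kinase C, was given at 1 nM in the bryostatin group and only its solvent in the DMSO group, both overnight at 37 °C in RPMI medium with 10% serum. Each group has 3 libraries, made from poly(A)-enriched RNA. Separate cultures are not stated for the libraries of a group, so a p-value here reflects spread among these samples alone, and that spread may be technical. Levels are FPKM, which is fragments divided by the length of the gene and by library size, as the authors deposited them. A difference is the mean log2(FPKM + 1) with bryostatin minus that with DMSO, and it understates changes of weakly covered genes.

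Both strands of mitochondrial DNA are transcribed into long precursors that cover many genes. In most places a tRNA stands between neighbouring mRNAs or rRNAs, and excision of the tRNAs releases the others. The mRNAs encode core subunits of respiratory complexes I, III and IV and of the ATP synthase, complex V, which make most of the ATP of a respiring cell together with many subunits encoded in the nucleus. After release most mRNAs receive a short poly(A) tail, which completes the stop codon where the gene itself ends within it. In human cells the MT-ND6 mRNA has been described as lacking a stable tail, the rRNAs carry only short runs of A, and mature tRNAs end in CCA.

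The last 18 bases of the 13 mRNA genes are shown because a poly(A)-enriched library sees a mitochondrial mRNA through this end. They are given 5′ to 3′ in the sense of the mRNA, with the stop codon, or the part of it that the gene holds, in capitals. Coordinates are on the mitochondrial genome (MT) of GRCh38, and these sequences, like all others given, are the transcripts of GENCODE release 29, to which the coordinates of all 37 genes are equal.
MT-ND1 (4245 to 4262, + strand): cattccccctcaaaccTA
MT-ND2 (5494 to 5511, + strand): ttatactaataatcttaT
MT-CO3 (9973 to 9990, + strand): tctattgatgagggtctT
MT-ND3 (10387 to 10404, + strand): gattagactgaaccgaaT
MT-ND4 (12120 to 12137, + strand): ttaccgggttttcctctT
MT-CYB (15870 to 15887, + strand): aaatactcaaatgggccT
MT-CO1 (7428 to 7445, + strand): gtatacataaaatctAGA
MT-CO2 (8252 to 8269, + strand): cccgtatttaccctaTAG
MT-ATP8 (8555 to 8572, + strand): ttgcccccacaatccTAG
MT-ATP6 (9190 to 9207, + strand): ctgcacgacaacacaTAA
MT-ND4L (10749 to 10766, + strand): aacctactccaatgcTAA
MT-ND5 (14131 to 14148, + strand): ctactcctaatcacaTAA
MT-ND6 (14149 to 14166, - strand): attgctcgggggaatAGG

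The first 6 of these genes end in T or TA, an incomplete stop codon, and each of the 6 abuts a tRNA gene with a gap of 0 bases. The other 7 hold a complete one. Their levels overlapped. The means over the 6 libraries ran between 791 and 3264 FPKM for the 6 mRNAs with an incomplete stop codon, and between 216 and 4944 FPKM for the 7 with a complete one.

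The 5 tRNA genes with the most reads are shown because they hold most tRNA reads, with the anticodon in capitals. Of these MT-TC, MT-TN, MT-TP and MT-TY are of the light-strand set and MT-TL1 is of the heavy-strand set.
MT-TC, cysteine (5761 to 5826, - strand): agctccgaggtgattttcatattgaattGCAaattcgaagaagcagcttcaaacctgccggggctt
MT-TN, asparagine (5657 to 5729, - strand): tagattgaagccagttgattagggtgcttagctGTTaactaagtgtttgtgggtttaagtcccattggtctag
MT-TP, proline (15956 to 16023, - strand): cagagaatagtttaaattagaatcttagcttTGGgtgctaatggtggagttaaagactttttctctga
MT-TY, tyrosine (5826 to 5891, - strand): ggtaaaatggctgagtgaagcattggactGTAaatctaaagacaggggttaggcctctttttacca
MT-TL1, leucine (3230 to 3304, + strand): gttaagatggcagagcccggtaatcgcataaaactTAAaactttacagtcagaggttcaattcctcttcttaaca

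Genes of the circle lie close together and some overlap, which limits how reads can be assigned. MT-ATP8 and MT-ATP6 share 46 bases, shown in capitals with 12 bases on either side, and are translated from 1 common mRNA.
MT-ATP8 and MT-ATP6 (8515 to 8584, + strand): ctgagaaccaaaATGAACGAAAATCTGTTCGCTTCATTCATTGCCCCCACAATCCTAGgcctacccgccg
MT-ND4L and MT-ND4 share 7 bases and are likewise translated from a common mRNA.
MT-ND4L and MT-ND4 (10748 to 10778, + strand): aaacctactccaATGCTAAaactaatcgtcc
MT-ATP6 and MT-CO3 share 1 base, as do MT-TC and MT-TY, and MT-TI overlaps MT-TQ on the other strand by 3 bases. MT-ND5 ends where MT-ND6, on the other strand, ends. The strand setting of the authors' counting is not given in the sources used here, so reads of a gene and of RNA from the opposite strand at the same place cannot be told apart.

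The reads on genes, recovered from the steps of the FPKM values, numbered 19405370 to 24468270 per library. Markers fitted the label. All 7 B-cell markers and all 4 markers of Burkitt or germinal centre cells averaged at least 1 FPKM, while 0 of 4 myeloid markers and 0 of 7 erythroid, fibroblast and epithelial markers did. Of 5 T-cell markers only TRAC did, at 3.12 to 13.5 FPKM, and CD2 was listed at 0 in every library. The limma moderated test across 11071 genes, those that averaged 1 FPKM or more, called 0.0% of them at a Benjamini-Hochberg adjusted p under 0.05, none of the mitochondrial genes included. At an unadjusted p under 0.05 it gave 1954 genes, 17.6% of those tested, and precision weights (voom) on the recovered reads gave 2181 and again 0 after adjustment.

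Mitochondrially encoded RNA took about the same share of the libraries with and without bryostatin. The share of reads on genes was 2.78%, 3.35% and 2.86% in bryostatin libraries 1 to 3, against 2.68%, 3.05% and 3.22% in DMSO libraries 1 to 3. The groups overlapped fully, the highest library being a bryostatin library and the lowest a DMSO library. The Wilson 95% interval of each library's share was at most 0.0159 percentage points wide, which covers counting error only. The mean share was 2.997% ± 0.306 with bryostatin and 2.98% ± 0.272 with DMSO (SD, n = 3 each), a difference of 0.0143 points (two-sided exact permutation test, p = 1.0); this was -0.161 points without bryostatin replicate 2 and -0.135 points without DMSO replicate 1. With 3 libraries against 3 this test cannot give a p under 0.1. In bulk RNA, fewer mitochondria-rich cells and less mitochondrial RNA per cell cannot be told apart.

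Within the mitochondrial reads, mRNA made up the bulk, rRNA most of the rest, and tRNA about 1%. The mRNA share of mitochondrial reads was 80.2%, 79.2% and 78.0% in bryostatin libraries 1 to 3, against 73.3%, 76.7% and 79.5% in DMSO libraries 1 to 3. The rRNA share was 19.0%, 19.8% and 21.1% in bryostatin libraries, against 25.3%, 22.2% and 19.7% in DMSO libraries. The tRNA share was 0.785%, 0.934% and 0.959% in bryostatin libraries, against 1.42%, 1.101% and 0.769% in DMSO libraries. In all 3 classes DMSO libraries 1 and 2 lay outside the bryostatin range on the same side, and DMSO library 3 lay inside it or beyond its other end. The ratio of mRNA to rRNA reads was 3.97 ± 0.264 with bryostatin and 3.47 ± 0.571 with DMSO (SD, n = 3 each). The exact permutation test gave p = 0.3 for the mRNA share, p = 0.3 for the rRNA share and p = 0.5 for the tRNA share. After Benjamini-Hochberg adjustment over the 7 library values tested in this way these became 0.525, 0.525 and 0.583.

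**Figure D1:**
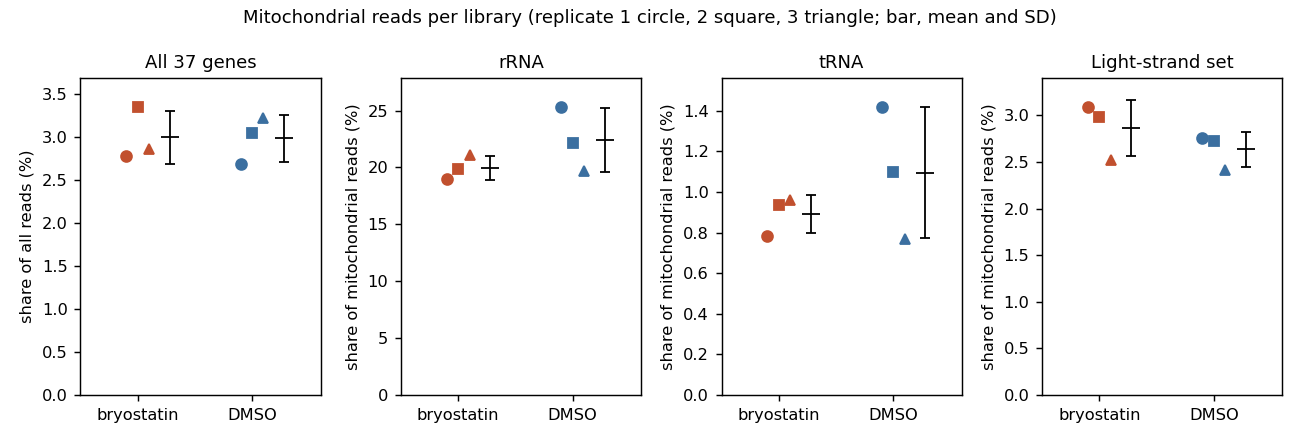
Share of all reads on genes taken by the 37 mitochondrially encoded genes, and shares of mitochondrial reads taken by rRNA, tRNA and the light-strand set, in percent on the vertical axes. Points are libraries, with the mean and SD (n = 3) as bars; for rRNA and tRNA, DMSO replicates 1 and 2 lie above all 3 bryostatin libraries and DMSO replicate 3 among or below them.

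The light-strand set held a few percent of the mitochondrial reads in every library. Its share was 3.09%, 2.98% and 2.52% in bryostatin libraries 1 to 3, against 2.76%, 2.73% and 2.42% in DMSO libraries 1 to 3. The bryostatin and DMSO libraries overlapped, and library 3 was the lowest of both groups. The log2 ratio of reads on the light-strand set to reads on the heavy-strand set was higher by 0.12 with bryostatin (exact permutation p = 0.4, adjusted 0.56). For the mRNAs alone, the log2 ratio of MT-ND6, the only light-strand mRNA, to the 12 heavy-strand mRNAs averaged -5.27 ± 0.263 with bryostatin and -5.55 ± 0.106 with DMSO (SD, n = 3 each; exact permutation p = 0.3, adjusted 0.525). Leaving out bryostatin replicate 3 raised the difference over all 37 genes to 0.21 (exact permutation p = 0.1, the smallest that 2 libraries against 3 can give), and leaving out DMSO replicate 3 lowered it to 0.06.

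The 15 mRNAs and rRNAs covered a wide range of levels, in a similar order in every library. MT-CO1 (ENSG00000198804, 5904 to 7445) was first in 6 of 6 libraries and MT-ATP8 (ENSG00000228253, 8366 to 8572) last in 6 of 6, and the FPKM ratio between them ran from 15.6 to 35.2. Behind MT-CO1 came MT-CO2, MT-CO3 and the large rRNA MT-RNR2, then a group of 4 mRNAs with nearly equal means, MT-ND4L, MT-ATP6, MT-ND3 and MT-ND4, at 2062, 2029, 2006 and 2005 FPKM over the 6 libraries. The small rRNA MT-RNR1 followed, then MT-ND1, MT-ND6, MT-ND2, MT-CYB and MT-ND5. Of the 14 pairs of neighbours in this order, 4 kept their order in all 6 libraries, namely MT-CO1 above MT-CO2, MT-RNR2 above MT-ND4L, MT-ND4 above MT-RNR1 and MT-ND5 above MT-ATP8. MT-ATP6 lay above MT-ND3 in only 1 of 6 libraries although its mean was higher.

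**Figure D2:**
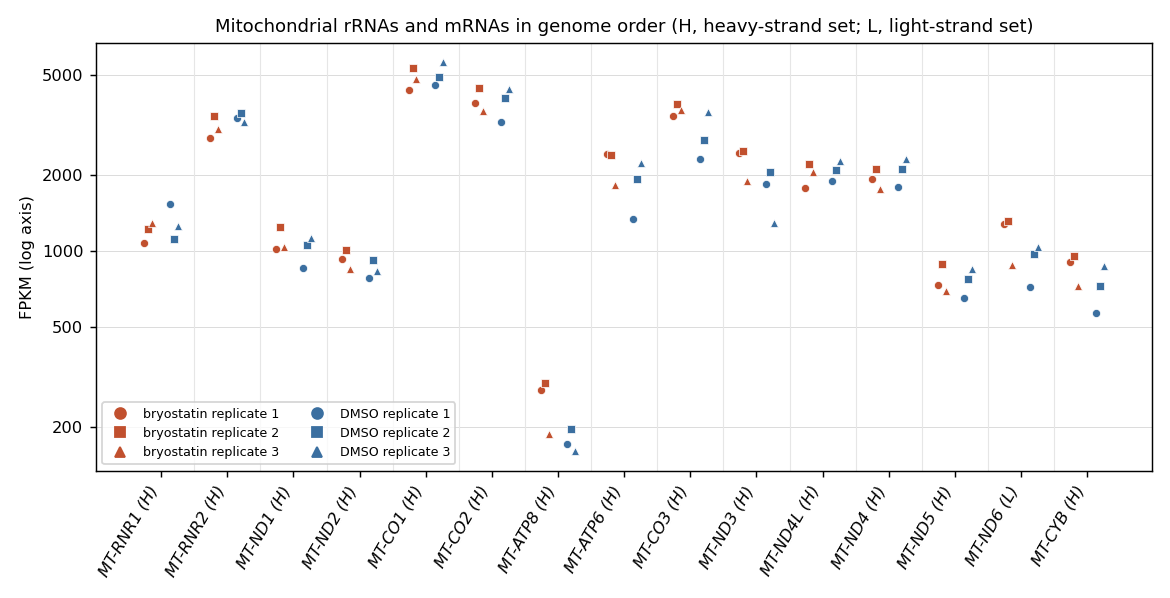
FPKM on a log axis of the 2 rRNAs and 13 mRNAs of the mitochondrial genome, in genome order, for 3 bryostatin and 3 DMSO libraries (points; H and L mark the heavy-strand and light-strand sets). MT-CO1 is at the top and MT-ATP8 at the bottom in every library, and the bryostatin and DMSO points overlap for each of the 15 genes.

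Complex I, NADH dehydrogenase, receives 7 of its subunits from mitochondrial DNA, all of them in the proton-pumping membrane arm. Their mRNAs took 32.8% to 35.6% of mitochondrial mRNA reads. Of the 7, MT-ND3 differed most in mean, with 2452, 2488 and 1901 FPKM in bryostatin libraries 1 to 3, against 1847, 2051 and 1296 FPKM in DMSO libraries 1 to 3. The groups overlapped at bryostatin library 3, and DMSO library 3 was the lowest of all. The mean was 2280 ± 329 FPKM with bryostatin and 1732 ± 391 FPKM with DMSO (SD, n = 3 each), a log2 difference of 0.41 with a 95% interval from -0.05 to 0.87 (limma adjusted p = 0.317). MT-ND6, the subunit encoded on the light strand, had 1275, 1314 and 876 FPKM in bryostatin libraries, against 720, 968 and 1033 FPKM in DMSO libraries. Here bryostatin library 3 lay below DMSO libraries 2 and 3, and the log2 difference was 0.34 (limma adjusted p = 0.3999).

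MT-ND4, a core subunit of the distal membrane arm, had 1928, 2112 and 1766 FPKM in bryostatin libraries 1 to 3, against 1795, 2116 and 2312 FPKM in DMSO libraries 1 to 3. Its partner on the same mRNA, MT-ND4L, had 1785, 2226 and 2070 FPKM in bryostatin libraries, against 1902, 2105 and 2283 FPKM in DMSO libraries. The FPKM of MT-ND4L was 0.926 to 1.17 times that of MT-ND4 over the 6 libraries, so these genes stood at nearly equal levels per length. Their log2 differences were -0.10 and -0.05, with intervals from -0.40 to 0.21 and from -0.34 to 0.24 (limma adjusted p = 0.712 and 0.849), and the sign for MT-ND4L turned without bryostatin replicate 1 (0.04) and without DMSO replicate 3 (0.01).

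MT-ND1, which contributes to the quinone site, had 1016, 1248 and 1037 FPKM in bryostatin libraries 1 to 3, against 852, 1060 and 1124 FPKM in DMSO libraries 1 to 3. MT-ND2 of the membrane arm had 931, 1010 and 847 FPKM in bryostatin libraries, against 778, 919 and 829 FPKM in DMSO libraries. MT-ND5, the most distal pump subunit, had 732, 886 and 692 FPKM in bryostatin libraries, against 647, 772 and 846 FPKM in DMSO libraries. In these 3 genes bryostatin library 2 was the highest and DMSO library 1 the lowest of the 6. The log2 differences were 0.12, 0.14 and 0.03 (limma adjusted p = 0.661, 0.513 and 0.933), and that of MT-ND5 became -0.02 with TPM and -0.08 without bryostatin replicate 2 or without DMSO replicate 1. Beside its light-strand neighbour, MT-ND5 was lower in every library, the FPKM ratio of MT-ND6 to MT-ND5 being 1.74, 1.48 and 1.27 in bryostatin libraries, against 1.11, 1.25 and 1.22 in DMSO libraries. This ratio did not overlap between the groups (exact permutation p = 0.1, the smallest possible), but the values of bryostatin library 3 and DMSO library 2 were close together, and the ratio was picked out after the values were seen.

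Cytochrome b, MT-CYB, is the only mitochondrially encoded subunit of complex III and carries its quinone sites. It had 901, 957 and 726 FPKM in bryostatin libraries 1 to 3, against 566, 725 and 870 FPKM in DMSO libraries 1 to 3. The groups overlapped, with the lowest value in DMSO library 1. The log2 difference was 0.27 with an interval from -0.16 to 0.70 (limma adjusted p = 0.447).

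Complex IV, cytochrome c oxidase, was the most heavily represented complex, its 3 mRNAs taking 53.0% to 57.6% of mitochondrial mRNA reads. MT-CO1, the catalytic subunit with the haem a and a3 centres, had 4374, 5356 and 4828 FPKM in bryostatin libraries 1 to 3, against 4556, 4915 and 5634 FPKM in DMSO libraries 1 to 3. MT-CO2, which receives electrons from cytochrome c, had 3870, 4433 and 3610 FPKM in bryostatin libraries, against 3271, 4042 and 4393 FPKM in DMSO libraries. For both genes the groups interleaved, and the log2 differences were -0.05 (interval from -0.35 to 0.24) and 0.03 (interval from -0.31 to 0.37), with limma adjusted p = 0.847 and 0.930. The sign for MT-CO2 was negative with TPM (-0.02), without bryostatin replicate 2 (-0.05) and without DMSO replicate 1 (-0.09), and that for MT-CO1 positive without bryostatin replicate 1 (0.02) or DMSO replicate 3 (0.03). MT-CO3, a structural subunit, had 3446, 3850 and 3624 FPKM in bryostatin libraries, against 2322, 2757 and 3583 FPKM in DMSO libraries. Here DMSO library 3 reached the bryostatin range while DMSO libraries 1 and 2 lay below it. The mean was 3640 ± 202 FPKM with bryostatin and 2888 ± 640 FPKM with DMSO (SD, n = 3 each), a log2 difference of 0.36 with an interval from -0.03 to 0.74 (limma adjusted p = 0.310).

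As shares of mitochondrial mRNA reads, which remove differences in the total, MT-CO3 and MT-ND4 were the only mRNAs of the 13 whose groups did not overlap. In FPKM both genes overlapped, and by that measure 23.6% of all genes tested had groups without overlap. The MT-CO3 share was 11.8%, 11.6% and 12.8% in bryostatin libraries 1 to 3, against 9.33%, 9.47% and 11.1% in DMSO libraries 1 to 3. The MT-ND4 share was 11.6%, 11.2% and 10.98% in bryostatin libraries, against 12.7%, 12.8% and 12.6% in DMSO libraries. These shares are parts of 1 total, so a higher share of one mRNA lowers that of others, and they were picked from 13 after the values were seen and carry no test. MT-CO1 alone took 29.6% to 35.98% of mitochondrial mRNA reads.

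The ATP synthase, complex V, has 2 mitochondrially encoded subunits, MT-ATP6, which forms the proton channel, and MT-ATP8, a small membrane subunit. MT-ATP8 had 281, 300 and 188 FPKM in bryostatin libraries 1 to 3, against 170, 196 and 160 FPKM in DMSO libraries 1 to 3. Bryostatin libraries 1 and 2 stood above all DMSO libraries, and library 3 lay between DMSO libraries 1 and 2. The mean was 256 ± 59.8 FPKM with bryostatin and 175 ± 18.4 FPKM with DMSO (SD, n = 3 each), a log2 difference of 0.52 with an interval from 0.08 to 0.96, the largest of the 13 mRNAs (limma unadjusted p = 0.0263, adjusted p = 0.241). Its mean coverage was 933 reads a library. MT-ATP6 had 2431, 2397 and 1826 FPKM in bryostatin libraries, against 1334, 1939 and 2245 FPKM in DMSO libraries, with a log2 difference of 0.29 (interval from -0.21 to 0.79, limma adjusted p = 0.483). Although they share an mRNA, the FPKM of MT-ATP8 was only 0.0712 to 0.128 times that of MT-ATP6. With 46 of the 207 bases of MT-ATP8 inside MT-ATP6, the way reads on the shared bases were counted bears on this ratio and is not given in the sources used here.

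Of the 13 mRNAs together, 10 were higher in mean with bryostatin and 3 lower, with a median log2 difference of 0.14, beside 0.02 over all 11071 genes. All 13 intervals lay within 2-fold either way. One mRNA, MT-ATP8, had an unadjusted p under 0.05, 7.69% of the 13, where 10.5% of all genes tested were called higher at that level. None of the 13 had groups free of overlap, beside 23.6% of all genes tested. The mRNAs tended to be high or low together within a library. Bryostatin library 2 was the highest of the 6 for 9 of 13 and DMSO library 1 the lowest for 8 of 13. The median deviation of the 13 from their means over the 6 libraries was 0.08, 0.25 and -0.10 on the log2 scale in bryostatin libraries 1 to 3, against -0.26, 0.01 and 0.16 in DMSO libraries 1 to 3. Without DMSO replicate 1 the median log2 difference was 0.08, and without bryostatin replicate 2 it was 0.08.

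The 2 rRNAs are the RNA cores of the mitochondrial ribosome, MT-RNR1 of the small and MT-RNR2 of the large subunit, and stand at the start of the heavy-strand precursor with only MT-TV between them. MT-RNR2 had 2803, 3437 and 3047 FPKM in bryostatin libraries 1 to 3, against 3382, 3547 and 3265 FPKM in DMSO libraries 1 to 3. MT-RNR1 had 1075, 1225 and 1296 FPKM in bryostatin libraries, against 1540, 1111 and 1253 FPKM in DMSO libraries. Both overlapped between the groups, MT-RNR1 with the highest and the second lowest value in DMSO. The log2 differences were -0.14 (interval from -0.40 to 0.12) and -0.11 (interval from -0.45 to 0.23), with limma adjusted p = 0.514 and 0.709, and that of MT-RNR1 was 0.02 without DMSO replicate 1. The FPKM ratio of MT-RNR2 to MT-RNR1 ran from 2.20 to 3.19. The rRNAs enter poly(A)-enriched libraries only in part, so these levels do not compare rRNA with mRNA in the cell.

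**Figure D3:**
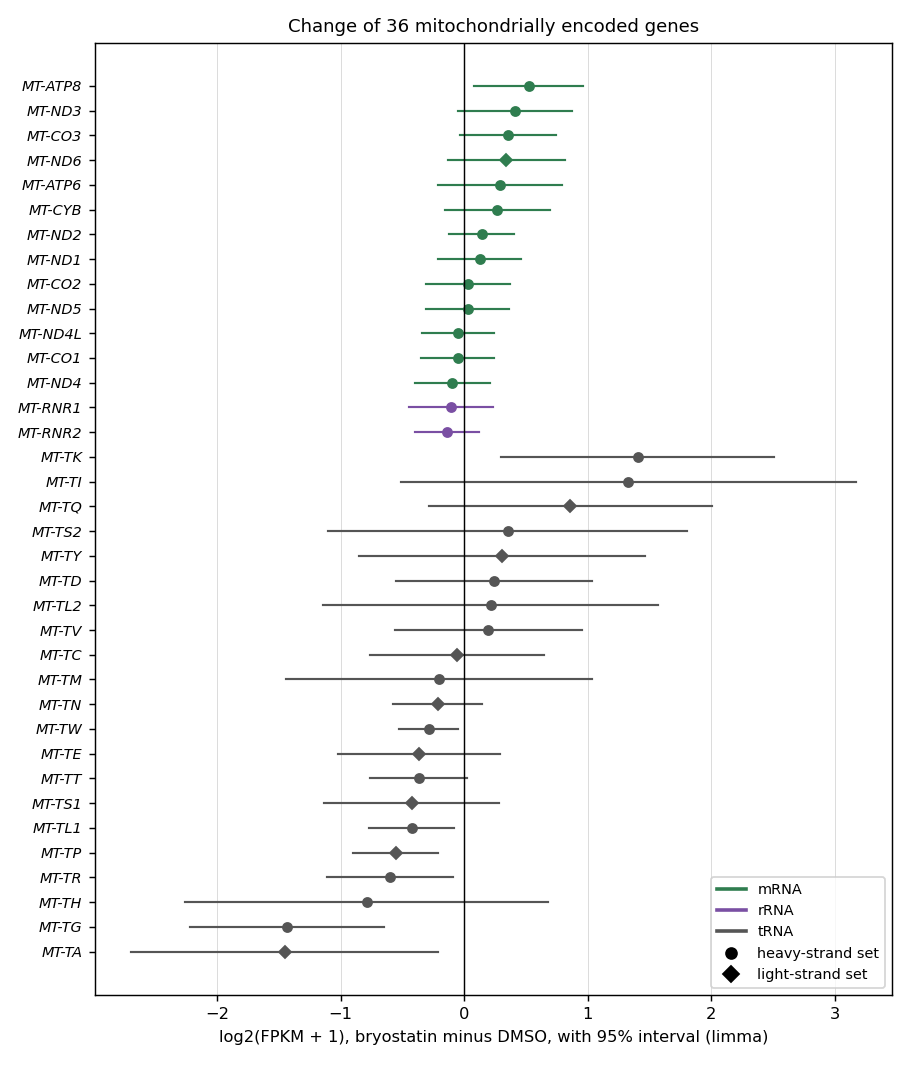
Difference in mean log2(FPKM + 1), bryostatin minus DMSO, of the 36 mitochondrially encoded genes tested, with 95% intervals from limma; circles mark the heavy-strand and diamonds the light-strand set. All 13 mRNAs and both rRNAs lie between -0.14 and 0.52, while the tRNAs spread from -1.45 to 1.40 with wider intervals.

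The tRNA genes fell into a few with many reads and many with few. MT-TC, MT-TN and MT-TP, all of the light-strand set, took 89.7% to 92.4% of tRNA reads in the 6 libraries, and the 8 light-strand tRNAs together 92.7% to 94.7%. The other 19 tRNA genes had a median of 12.3 reads per library. Mature tRNAs are short and lack a poly(A) tail, so these levels do not give the amounts of mature tRNA in the cell. Neighbouring tRNA genes differed widely. MT-TA, with a mean of 4.17 reads per library, lies on the same strand as MT-TN, with a mean of 1976 reads, at a distance of 1 base, and MT-TY, with 128 reads, overlaps MT-TC, with 2577 reads. The tRNA genes measured 59 to 75 bases with a GC content of 23.1% to 49.3%, against 39.6% to 47.7% for the mRNAs. MT-TF, for phenylalanine, had 1 read in bryostatin library 3 and 0 in the other 5 libraries, where a count of 0 allows up to 3 reads by counting error alone. It was the only one of the 37 genes that missed the minimum level for the test.

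**Figure D4:**
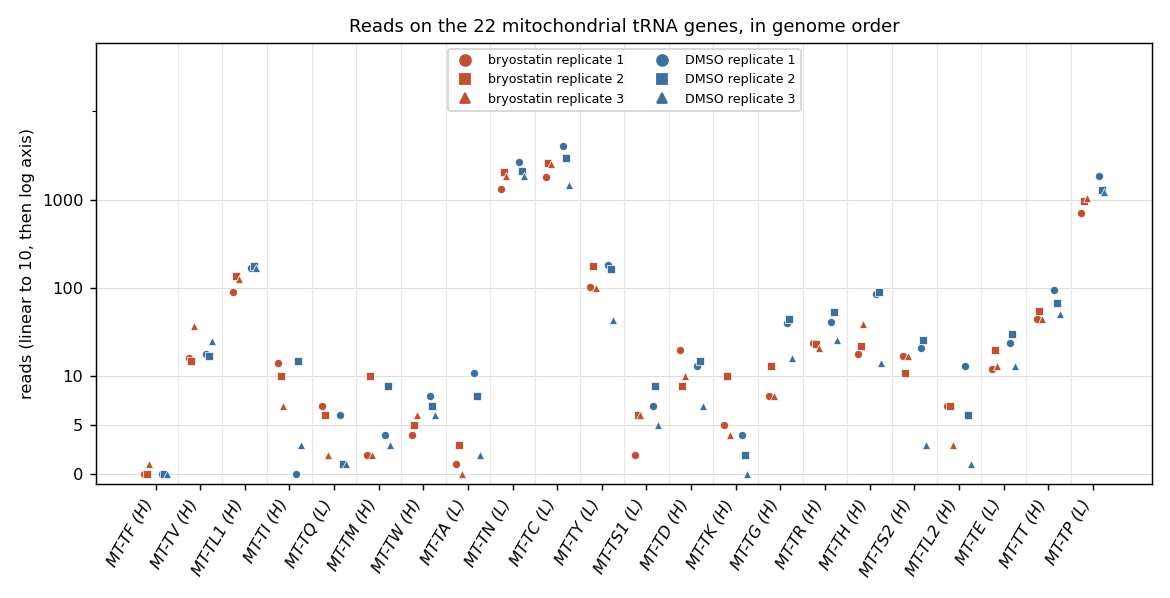
Reads on each of the 22 mitochondrial tRNA genes in genome order, for 3 bryostatin and 3 DMSO libraries; the vertical axis is linear up to 10 reads and logarithmic above. MT-TN, MT-TC and MT-TP have at least 708 reads in every library, and MT-TF has 1 read in all.

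MT-TC, the tRNA for cysteine, had 1448, 1979 and 1760 FPKM in bryostatin libraries 1 to 3, against 2508, 2075 and 1094 FPKM in DMSO libraries 1 to 3. The DMSO libraries enclosed all bryostatin libraries, and the log2 difference of -0.06 took the other sign without bryostatin replicate 1 (0.06), without DMSO replicate 1 (0.19) and without DMSO replicate 2 (0.05). MT-TN, for asparagine, had 951, 1397 and 1190 FPKM in bryostatin libraries, against 1468, 1335 and 1264 FPKM in DMSO libraries, overlapping at bryostatin library 2 (log2 difference -0.22, limma adjusted p = 0.472). MT-TP (ENSG00000210196), for proline, had 549, 701 and 718 FPKM in bryostatin libraries, against 1105, 873 and 904 FPKM in DMSO libraries. Each bryostatin library lay below each DMSO library. The mean of MT-TP was 656 ± 93.1 FPKM with bryostatin and 961 ± 126 FPKM with DMSO (SD, n = 3 each), a log2 difference of -0.55 with an interval from -0.90 to -0.21 (limma unadjusted p = 0.00668, adjusted p = 0.217). MT-TP had 1183 reads per library on average.

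Among the 13 heavy-strand tRNAs tested, 4 had no overlap between the groups and were lower in mean with bryostatin. This was 30.8% of the 13, beside 10.7% of all genes tested. MT-TL1, for leucine, had 63.3, 90.6 and 77.2 FPKM in bryostatin libraries 1 to 3, against 92.0, 106 and 110 FPKM in DMSO libraries 1 to 3 (log2 difference -0.42, limma adjusted p = 0.236), on 144 reads per library. MT-TR, for arginine, had 19.5, 17.7 and 15.0 FPKM in bryostatin libraries, against 25.6, 37.2 and 20.0 FPKM in DMSO libraries (log2 difference -0.60, limma adjusted p = 0.241). In both genes a gap of under 3 FPKM separated the nearest libraries of the groups. MT-TG (ENSG00000210164), for glycine, between MT-CO3 and MT-ND3, had 6.20, 9.56 and 5.45 FPKM in bryostatin libraries, against 23.9, 29.5 and 11.7 FPKM in DMSO libraries. These were 8, 13 and 8 reads in bryostatin libraries, against 40, 44 and 16 reads in DMSO libraries. Its log2 difference of -1.43 (interval from -2.22 to -0.65, limma unadjusted p = 0.00349, adjusted p = 0.216) had the smallest p of the 36, while its neighbours on either side, MT-CO3 and MT-ND3, had differences of 0.36 and 0.41. MT-TW, for tryptophan, had 4, 5 and 6 reads in bryostatin libraries, against 8, 7 and 6 reads in DMSO libraries, so that its missing overlap in FPKM hung on equal read counts in library 3 of both groups.

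Below these came genes whose groups overlapped or whose reads were few. MT-TT, for threonine, had 35.9, 41.7 and 31.6 FPKM in bryostatin libraries 1 to 3, against 57.8, 46.3 and 38.6 FPKM in DMSO libraries 1 to 3 (log2 difference -0.37, limma adjusted p = 0.306). MT-TH, for histidine, had 13.8, 15.9 and 26.2 FPKM in bryostatin libraries, against 50.6, 60.2 and 10.1 FPKM in DMSO libraries (log2 difference -0.79, limma adjusted p = 0.515). MT-TY, for tyrosine, had 81.5, 136 and 70.2 FPKM in bryostatin libraries, against 111, 113 and 32.5 FPKM in DMSO libraries (log2 difference 0.30, limma adjusted p = 0.769, and -0.28 without DMSO replicate 3). In MT-TH and MT-TY, DMSO library 3 was the lowest of all 6. MT-TK, for lysine, was the only one of the 36 whose bryostatin libraries all lay above the DMSO libraries, on 5, 10 and 4 reads in bryostatin libraries, against 4, 2 and 0 reads in DMSO libraries (log2 difference 1.40, limma unadjusted p = 0.0196, adjusted p = 0.232). MT-TA, for alanine, had 1, 3 and 0 reads in bryostatin libraries, against 11, 8 and 2 reads in DMSO libraries (log2 difference -1.45, limma unadjusted p = 0.0277, adjusted p = 0.243). At such counts a single read moves the value.

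The remaining 9 tested tRNA genes all overlapped and averaged between 3.83 reads (MT-TQ) and 21.3 reads (MT-TV) per library. The log2 differences were 0.86 for MT-TQ, for glutamine, and 1.33 for MT-TI, for isoleucine. For the serine tRNAs they were 0.35 (MT-TS2) and -0.42 (MT-TS1), and 0.21 for MT-TL2, the other leucine tRNA. For MT-TD, MT-TV, MT-TM and MT-TE, which serve aspartate, valine, methionine and glutamate, they were 0.24, 0.19, -0.20 and -0.37. Signs turned for MT-TS2 (-0.43) and MT-TL2 (-0.42) without DMSO replicate 3, for MT-TV without bryostatin replicate 3 (-0.15) and for MT-TD without bryostatin replicate 1 (-0.12). That of MT-TM turned without bryostatin replicate 1 (0.07), bryostatin replicate 3 (0.12) or DMSO replicate 2 (0.16). In DMSO library 3, MT-TS2 had 3 reads, MT-TI 3 reads and MT-TL2 1 read.

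Taking the 21 tested tRNA genes together, 13 were lower in mean with bryostatin and 8 higher, with a median log2 difference of -0.22, beside 0.02 over all genes. At an unadjusted p under 0.05, 6 were lower (MT-TG, MT-TP, MT-TL1, MT-TW, MT-TR and MT-TA), 28.6% of the 21, where 7.18% of all genes tested were, and 1 was higher (MT-TK). Groups did not overlap for 5 lower genes, 23.8% of the 21, where 10.7% of all genes tested were lower without overlap, and for 1 higher gene, where 12.9% of all genes were. These genes share precursors, libraries and, at the low end, single reads, so they are not independent of each other, and no test was made over the list. The lower members were not of 1 strand: 7 of 13 heavy-strand and 6 of 8 light-strand tRNAs were lower, with medians of -0.20 and -0.29. Over all 36 genes tested, the count at an unadjusted p under 0.05 was 2 higher and 6 lower, 5.56% and 16.7% of the 36. The shares of all genes tested were 10.5% higher and 7.18% lower. In both directions together these were 22.2% of the 36 beside 17.6% of all genes. The count among the 36 was 1 higher and 3 lower without bryostatin replicate 1, and 0 higher and 6 lower without bryostatin replicate 2. It was 5 higher and 3 lower without bryostatin replicate 3, and 4 higher and 2 lower without DMSO replicate 2. Calls over all 11071 genes moved too, to 913, 1893, 1486 and 1687 in these settings in turn, from 1954 with all libraries.

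DMSO replicate 3 stood apart from its group in the tRNAs. The median deviation of the 21 from their means over the 6 libraries was -0.27, 0.11 and -0.19 on the log2 scale in bryostatin libraries 1 to 3, against 0.24, 0.28 and -0.31 in DMSO libraries 1 to 3. DMSO library 3 was the lowest of the 6 for 7 of the 22 tRNA genes, while DMSO library 1 was the highest for 7 and DMSO library 2 for 6. Bryostatin libraries 1 and 3 were the lowest for 6 each, those of library 1 including MT-TF, where libraries tied at 0. Leaving out DMSO replicate 3 gave a tRNA median log2 difference of -0.41. This median was -0.08 without bryostatin replicate 1, -0.12 without DMSO replicate 2 and -0.35 without bryostatin replicate 2. Without DMSO replicate 3 the unadjusted calls among the 36 genes came to 3 higher and 9 lower ones, 12 in all. Over all 11071 genes such calls, not split by direction here, rose as well, to 2861 from 1954 with all libraries. MT-TG (-1.80, limma adjusted p = 0.0344) and MT-TH (-1.57, limma adjusted p = 0.0464) then passed the adjusted threshold, among 267 genes of the whole table. The signal recognition particle RNA RN7SL2, encoded in the nucleus and without a poly(A) tail, was also lowest in DMSO library 3. It had 860, 567 and 295 FPKM in bryostatin libraries, against 183, 383 and 39.1 FPKM in DMSO libraries. The table lists 21 such RNAs encoded in the nucleus, of which 4 were tested. All 4 were higher in mean with bryostatin, 1 of them, RN7SL2, at an unadjusted p under 0.05. SNORD3A, a small nucleolar RNA, had 1.06, 2.22 and 2.06 FPKM in bryostatin libraries, against 0.290, 0.718 and 1.57 FPKM in DMSO libraries. Unlike RN7SL2, the other tested ones, SNORD3A, RNU5A-1 and SNORD17, were lowest in DMSO library 1. The median deviation of the 4 was -0.77, 0.10 and -0.11 in DMSO libraries 1 to 3, against 0.13, 0.80 and 0.29 in bryostatin libraries. SNORD3A and RNU5A-1 averaged only 1.32 and 2.23 FPKM over the 6 libraries, so their order among libraries rests on low values. Whether these RNAs vary with the tRNAs was not tested. The near-identical RN7SL1 was listed at 0 in all 6 libraries, so reads of RN7SL2 cannot be assigned with certainty, and the part of poly(A) selection in the tRNA values was not tested.

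Copies of mitochondrial DNA in the nuclear genome can take reads from the genes of the circle. The table holds 407 genes named as such copies, of which 368 had no read in any library and 4 reached the minimum level for the test. These 4, MTATP6P1, MTND2P28, MTRNR2L12 and MTCO1P12, held 99.1% of the reads on all copies. MTATP6P1, on chromosome 1 from 633696 to 634376, took 6.91% to 9.41% of the summed reads of itself and MT-ATP6. It had 180, 207 and 190 FPKM in bryostatin libraries 1 to 3, against 101, 150 and 214 FPKM in DMSO libraries 1 to 3. By reads, MTND2P28 took 4.08% to 4.95% of its pair with MT-ND2. MTRNR2L12 took 0.361% to 0.554% of its pair with MT-RNR2, and MTCO1P12 0.106% to 0.316% of its pair with MT-CO1. MTCO1P12 had 13.9, 13.9 and 12.3 FPKM in bryostatin libraries, against 8.18, 9.47 and 5.95 FPKM in DMSO libraries, without overlap (log2 difference 0.71, limma unadjusted p = 0.00218, adjusted p = 0.216), whereas MT-CO1 itself had -0.05. The other 3 copies overlapped between the groups, with log2 differences of 0.37, 0.17 and 0.09. How the authors' counting treated reads that match several places is not given in the sources used here. The levels of MT-ATP6, MT-ND2 and the other genes with copies are therefore uncertain, by an amount that these shares do not measure.

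Nuclear genes that keep and transcribe mitochondrial DNA were set beside the members. Of 20 tested genes of mitochondrial DNA replication and transcription 17 were higher in mean with bryostatin, where 5967 of all 11071 genes tested were, with a median log2 difference of 0.17. At an unadjusted p under 0.05, 3 of the 20 were higher, 15.0%, beside 10.5% of all genes tested, and none was lower. TFAM, which packages the DNA and starts transcription, had 30.5, 24.8 and 25.5 FPKM in bryostatin libraries 1 to 3, against 21.4, 21.1 and 25.2 FPKM in DMSO libraries 1 to 3 (log2 difference 0.24, limma adjusted p = 0.317). TFB2M, the partner of the RNA polymerase at promoters, had 19.9, 17.2 and 17.1 FPKM in bryostatin libraries, against 11.5, 11.95 and 16.2 FPKM in DMSO libraries (log2 difference 0.44, limma adjusted p = 0.227). TFAM overlapped between the groups at DMSO library 3, and TFB2M did not overlap. The RNA polymerase itself, POLRMT, had a log2 difference of 0.04 with an interval from -0.13 to 0.20, the elongation factor TEFM 0.05 and the helicase TWNK 0.17.

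Of 39 tested genes that process, stabilise or degrade mitochondrial RNA, 30 were higher in mean, beside 5967 of 11071 over all genes, with a median of 0.10. At an unadjusted p under 0.05, 7 were higher, 17.9% of the 39 beside 10.5% of all genes tested, and none was lower. SLIRP, which with LRPPRC protects mitochondrial mRNAs and their tails, had 36.8, 34.8 and 29.8 FPKM in bryostatin libraries 1 to 3, against 23.1, 25.99 and 27.9 FPKM in DMSO libraries 1 to 3, without overlap (log2 difference 0.38, limma adjusted p = 0.217). LRPPRC had -0.10 with an interval from -0.31 to 0.12. PNPT1 and SUPV3L1, the nuclease and helicase of the degradosome, had 0.11 and -0.0016 (limma adjusted p = 0.684 and 0.994).

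Most nuclear subunits of the same respiratory complexes were higher in mean with bryostatin, as were 5967 of the 11071 genes tested, and no gene passed the adjusted threshold, while their difference from the mitochondrially encoded subunits was not tested. For complex I, 29 of 35 tested nuclear genes were higher, with a median of 0.17, beside 5 of 7 mitochondrial ones and a median of 0.12. The counts for the nuclear genes of complexes III, IV and V were 6 of 9, 10 of 11 and 17 of 18, with medians of 0.15, 0.21 and 0.19. The mitochondrial medians of the same complexes were 0.27 (1 gene), 0.03 (3 genes) and 0.41 (2 genes). At an unadjusted p under 0.05, 12, 1, 4 and 7 nuclear genes of complexes I, III, IV and V were higher, which is 34.3%, 11.1%, 36.4% and 38.9% of those tested, beside 10.5% of all genes, so that the share for complex III was near that of all genes. Of complex I 1 gene, 2.86%, was lower, beside 7.18% of all genes. By the naming rule, the 2 genes of each complex with the smallest p were NDUFB1 (0.75) and NDUFB3 (0.50), UQCRQ (0.30) and UQCRC2 (-0.21), COX6C (0.29) and COX8A (0.66), and ATP5IF1 (0.80) and ATP5MC3 (0.39), all with limma adjusted p between 0.216 and 0.328. ATP5IF1, the inhibitor of the ATP synthase, had 84.9, 83.1 and 53.8 FPKM in bryostatin libraries 1 to 3, against 40.1, 45.7 and 38.2 FPKM in DMSO libraries 1 to 3. In nuclear complexes I, IV and V and in the replication and transcription list, the median deviation of each bryostatin library lay above that of each DMSO library. This was not so for the mitochondrially encoded mRNAs or tRNAs, nor for nuclear complex III or the RNA processing list. In nuclear complex III bryostatin library 3 (-0.04) lay below DMSO library 1 (0.03). In the RNA processing list bryostatin library 3 (0.02) lay below DMSO library 3 (0.03).

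**Figure D5:**
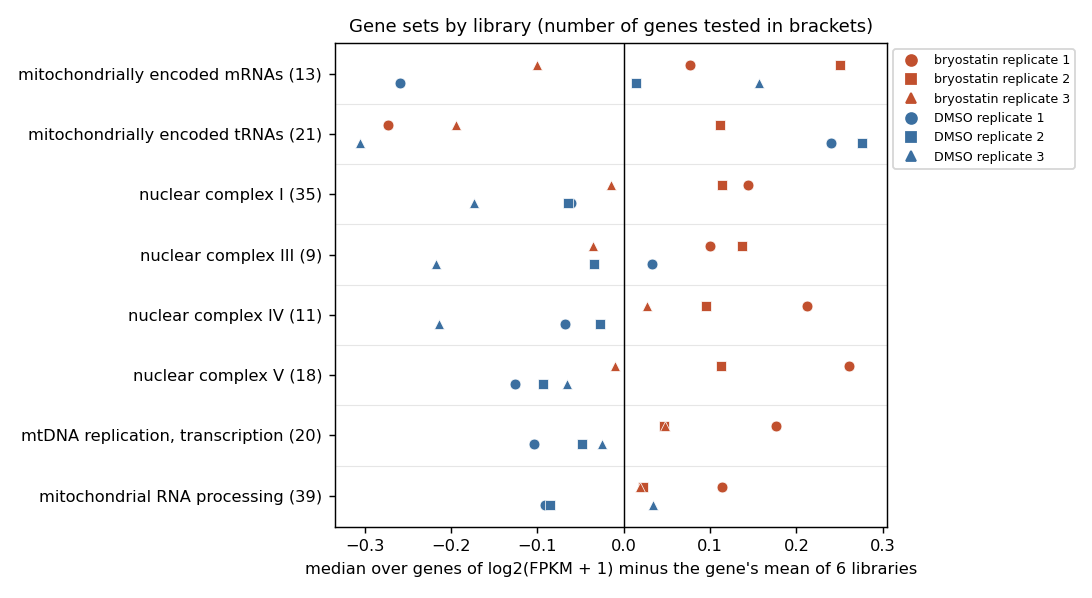
Median over the genes of each set of log2(FPKM + 1) minus the gene's mean over the 6 libraries, for 3 bryostatin and 3 DMSO libraries. For the mitochondrially encoded mRNAs DMSO library 1 is the lowest (-0.26) and bryostatin library 2 the highest (0.25), and for the tRNAs DMSO library 3 (-0.31) lies below all bryostatin libraries while DMSO libraries 1 and 2 lie above them.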

How the data were processed

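The deposited values are FPKM per gene, made by the authors from poly(A)-enriched RNA, per the labels' protocols. Named in the submitters' processing notes, without roles, are hg38, DESeq2 1.20.0, featureCounts 1.5.0-p3, HISAT2 2.0.5 and CASAVA. Gene lengths were taken as deposited by the authors. Reads per gene and depth were recovered from the steps of FPKM times length, and 100% of values came out whole within a tolerance of 0.05 reads. Intervals and limits from reads cover counting error only.

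The 11071 genes averaging 1 FPKM or more entered the moderated test of limma 3.58.1 (R 4.3.3) on log2(FPKM + 1), with an intensity trend and Benjamini-Hochberg adjustment over all of them, threshold 0.05. Alternatives were another pseudocount, other filters, TPM, other scalings, voom, the replicate block and each library left out. The fit was tested on simulated reads, drawn independently at a fixed dispersion, where 4.65% of unchanged genes had a limma unadjusted p under 0.05. In the deposited data 17.6% of all genes did, and whether the simulated spread matches these libraries was not tested. Library values were compared by two-sided exact permutation tests. The members and gene lists were chosen with earlier results of these data known. The naming rule takes all mRNAs and rRNAs, the tRNAs above the minimum level, 9 nuclear genes of mitochondrial gene expression, the 4 copies with most reads and the 2 genes of smallest p in each other list.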

Additional observations from a re-analysis of the deposited data

How the results depend on the processing

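The medians of the mRNAs and tRNAs kept their sign under all 14 alternatives to the fit, between 0.08 and 0.21 for the mRNAs and between -0.41 and -0.08 for the tRNAs. Of the 36 genes, 24 kept 1 sign throughout. No mitochondrial gene passed the adjusted threshold unless DMSO replicate 3 was left out, where 2 did; leaving out a library gave 0 to 2 such genes and 0 to 267 genes over the whole table, and a pseudocount of 0.1 or TPM gave 1 gene each. Members higher at an unadjusted p under 0.05 numbered 1 with a pseudocount of 0.1 or a filter of 5 FPKM, and 0 to 5 on leaving out a library. Lower members numbered 2 to 9 on leaving out a library. Over all 11071 genes, calls at that level then ran from 913 to 2861. The difference in mitochondrial share ran from -0.161 to 0.131 points on leaving out a library.

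With TPM, MT-CO2 took -0.0181 and MT-ND5 -0.01998. On leaving out a library the log2 difference ran from -0.126 to 0.0314 for MT-CO1, -0.0910 to 0.122 for MT-CO2, -0.122 to 0.0379 for MT-ND4L, -0.0780 to 0.115 for MT-ND5, -0.217 to 0.0181 for MT-RNR1, -0.41 to 0.19 for MT-TC, -0.28 to 0.60 for MT-TY, -0.15 to 0.42 for MT-TV, -0.43 to 0.86 for MT-TS2, -0.12 to 0.44 for MT-TD, -0.42 to 0.73 for MT-TL2 and -0.79 to 0.16 for MT-TM. The median of the 4 tested RNAs encoded in the nucleus without a poly(A) tail was 0.66. It became 1.08 with a pseudocount of 0.1, 1.23 with a filter of 5 FPKM and 1.13 with voom. That of the nuclear copies, 0.27, ran from 0.12 to 0.34 on leaving out a library. The cause of these shifts was not tested.

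Samples of the same replicate number deviated in opposite directions (correlations of -0.29, -0.32 and -0.11 over 11071 genes), so over all genes no shared deviation was seen. The deviations were taken within groups of 3, which constrains these correlations, and pairing in single measures was not tested. The light-strand share, for example, fell from library 1 to library 3 in both groups. With the replicate number as a block, calls at an unadjusted p under 0.05 came to 4 higher and 7 lower ones among the 36 members. These were 11 members, against 8 in the main fit, while calls over all 11071 genes fell to 1191 from 1954. After adjustment 0 genes passed, and the difference in mitochondrial share of 0.0143 points had an exact sign-flip p of 1.0. Depth limits the 9 tRNA genes with fewer than 10 reads per library on average.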
